A study of Mus musculus with 6 samples.

Results

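Insm1, Neurog2, Bhlhe23, Atoh7, Neurod1, Neurod4, Olig2, Sox4 and Sox11 are 9 of the 32285 genes in the count table, and all 9 are transcription factors that act while neurons are being made. They were chosen by symbol from a list drawn up with their CPM in OIR-CIH against OIR-Norm already known, so their differences are given as descriptions, without p-values. Bulk RNA sequencing was performed on whole retinas from wild-type C57BL/6J mice at postnatal day 18, with 3 libraries in each of 2 groups. All pups had been kept with their mothers in 75% O2 from postnatal day 8 to day 13, which closes and removes capillaries of the central retina, a model called oxygen-induced retinopathy (OIR). From day 13, the OIR-CIH group received chronic intermittent hypoxia (CIH), that is 266 cycles of 135 s over 10 h per day in which cage O2 fell from 20.95% to 5.0% and returned. The OIR-Norm group had the same gas flow and noise at a constant O2 level. Both groups therefore carry the oxygen injury, and no retina without it entered the comparison, which asks what intermittent hypoxia adds to an already ischemic retina.

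Most of these factors have a basic helix-loop-helix (bHLH) domain. Such a protein pairs with a broadly expressed E protein, and the dimer binds a short DNA motif called an E-box. Id proteins resemble bHLH factors but cannot bind DNA, so they hold E proteins in inactive pairs, and Notch signaling restrains the same factors through the Hes and Hey repressors. In the embryonic and newborn retina, Neurog2 and Atoh7 act in progenitors that are leaving the cell cycle, Neurod1 and Neurod4 act in newborn neurons, and Insm1, a zinc-finger repressor, is switched on by proneural factors. Bhlhe23 and Olig2 belong to the Olig-related branch of the bHLH family, and Sox4 and Sox11 are SoxC proteins of young neurons. At the age studied here, neurogenesis in the mouse retina is over, and Neurod1 remains on in photoreceptors, Neurod4 in bipolar cells and Bhlhe23 in a subset of inner neurons.

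Because members of the bHLH branch read E-boxes, the 250 bases before the transcription start of the members were searched for CANNTG, which reads the same on both strands. RefSeq windows on GRCm38.p6 were used for 8 of the 9 members, all but Insm1. The windows of Bhlhe23 and Neurog2 are shown because these genes had the higher level in OIR-CIH. Those of Neurod4 and Sox11 are examples of members whose fitted difference was below 0. The window of Neurod1, also below 0, is not shown. Each is written from 5′ to 3′ on the strand of its gene, with any CANNTG in capitals. The Bhlhe23 window is chr2:180776901-180777150 on the minus strand, the Neurog2 window chr3:127632886-127633135 on the plus strand, the Neurod4 window chr10:130280255-130280504 on the minus strand and the Sox11 window chr12:27342719-27342968 on the minus strand.
Bhlhe23: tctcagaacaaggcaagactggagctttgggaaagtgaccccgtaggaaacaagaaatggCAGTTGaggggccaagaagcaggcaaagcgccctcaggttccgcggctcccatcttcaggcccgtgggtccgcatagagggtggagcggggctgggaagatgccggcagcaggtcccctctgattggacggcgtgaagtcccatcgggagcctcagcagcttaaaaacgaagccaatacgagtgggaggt
Neurog2: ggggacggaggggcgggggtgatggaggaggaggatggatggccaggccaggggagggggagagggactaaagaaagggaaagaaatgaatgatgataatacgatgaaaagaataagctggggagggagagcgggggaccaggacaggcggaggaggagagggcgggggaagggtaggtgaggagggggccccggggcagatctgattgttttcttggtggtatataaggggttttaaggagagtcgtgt
Neurod4: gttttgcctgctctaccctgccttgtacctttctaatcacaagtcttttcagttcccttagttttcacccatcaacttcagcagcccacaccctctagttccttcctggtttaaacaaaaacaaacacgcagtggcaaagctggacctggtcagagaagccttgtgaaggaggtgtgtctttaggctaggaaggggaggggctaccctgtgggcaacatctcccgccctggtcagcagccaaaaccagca
Sox11: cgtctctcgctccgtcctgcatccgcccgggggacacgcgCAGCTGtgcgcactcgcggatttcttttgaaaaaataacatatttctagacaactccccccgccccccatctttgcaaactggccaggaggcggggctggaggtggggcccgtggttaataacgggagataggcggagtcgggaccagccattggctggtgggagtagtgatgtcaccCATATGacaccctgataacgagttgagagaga

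The Bhlhe23 window held 1 E-box, CAGTTG, which starts 190 bases before the transcription start. The Neurog2 window held none. Among the members whose level did not pass the test described below, the Sox11 window held CAGCTG at 210 bases and CATATG at 32 bases before the start, the Sox4 window held CAGCTG at 211 bases, the Neurod1 window held CATATG at 242 bases, and the Atoh7 window held CAGATG at 218 bases and CACCTG at 67 and 57 bases. These distances are to the RefSeq start. In the GENCODE annotation, the source of the gene coordinates below, Atoh7 starts at 63099651, so both CACCTG lie within that gene. The windows of Neurod4 and Olig2 held none. In all, 5 of the 8 members had at least 1 CANNTG, and 66.2% of all 32851 promoter windows of this length hold it. CAGATG is found in 14.4% of all windows and CAGCTG in 13.0%. Of the 2 called members with a window, 1 held an E-box, and a match of letters does not show that a factor binds there.

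The 6 libraries held 26289905 to 38010151 counted reads, and levels are given as CPM, the reads of a gene scaled to a common library total. Of the 32285 genes, 20021 reached a total of 10 reads and were tested by edgeR's quasi-likelihood method with Benjamini-Hochberg adjustment. A gene was called when its adjusted p was under 0.05 and its log2 fold change exceeded 0.5 in either direction, which 63 genes or 0.315% did (20 higher and 43 lower in OIR-CIH). At least 10 reads of Xist and at least 10 reads summed over 4 Y-linked genes were counted in all 6 libraries. This limit is low beside the library totals, and whether RNA of both sexes was mixed in a library was not tested. The methods describe 3 eyes per group, which would be 1 eye per library. Here n counts libraries, and how many animals gave each one is not known. The OIR-Norm 2 library stood apart in lens genes, whose summed level was 453.9 CPM there and 16.3 to 64.7 CPM in the other 5 libraries. Summed pigment epithelium genes ranged from 342 to 494.5 CPM in OIR-CIH and from 213.1 to 395.1 CPM in OIR-Norm. Their part in the results was not tested. Rod genes, the defining markers of retina, summed to 51940 to 68520 CPM in every library. For the called factors, the values without OIR-Norm 2 are given below.

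Of the 9 members, 8 were tested and 3 were called, all higher in OIR-CIH: Insm1, Neurog2 and Bhlhe23. Genes called higher make up 0.0999% of all tested genes, but the list was built around these differences, so nothing is read from that contrast. Neurod1, Neurod4, Sox4, Sox11 and Atoh7 were not called, and Olig2 was at the limit of detection. The fitted log2 fold change was above 0 for 5 members and below 0 for 3, with a median of 0.36, beside -0.003 over all tested genes. All OIR-CIH libraries lay above all OIR-Norm libraries for 3 members (9.12% of tested genes) and below them for 1, Neurod4 (9.26%). In bulk tissue, a change in the number of cells of a type and a change in RNA per cell cannot be told apart.

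**Figure D1:**
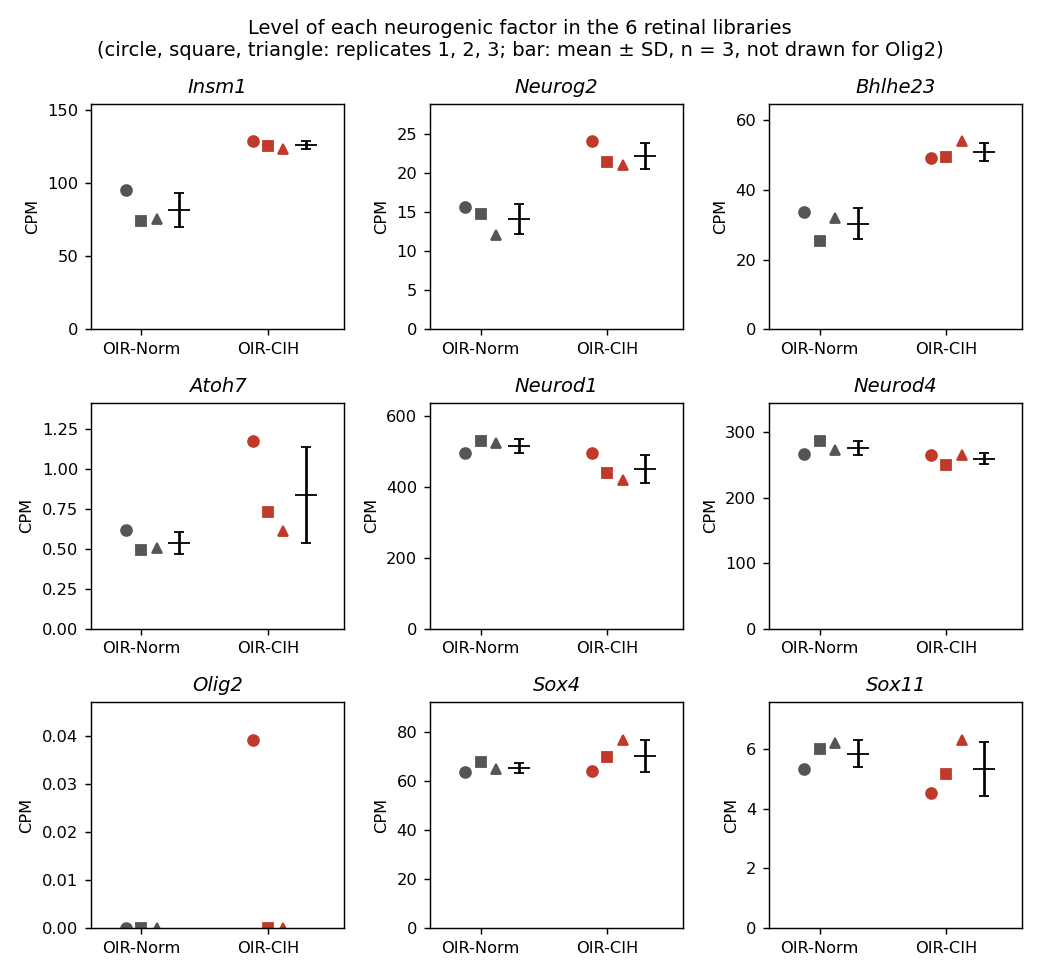
Level of each of the 9 factors in CPM (vertical axis, from 0, a scale for each gene) in the 3 OIR-CIH and 3 OIR-Norm libraries; circles, squares and triangles are replicates 1, 2 and 3, and bars are the mean ± SD (n = 3, not drawn for Olig2). All OIR-CIH points lie above all OIR-Norm points for Insm1, Neurog2 and Bhlhe23, and the lowest and highest values of the 2 groups interleave for Atoh7, Neurod1, Sox4 and Sox11.

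Insm1 (ENSMUSG00000068154, chromosome 2, 146221921 to 146225020 on the plus strand of GRCm38, 1 exon) encodes the zinc-finger repressor that follows proneural factors in newborn neurons and endocrine cells. It measured 128.7, 125.8 and 123.2 CPM in the OIR-CIH libraries and 95.36, 74.09 and 75.55 CPM in the OIR-Norm libraries. The groups did not overlap, and 27.81 CPM lay between the lowest OIR-CIH and the highest OIR-Norm library. The 3 OIR-CIH libraries were close to each other (125.9 ± 2.80 CPM, SD, n = 3), whereas OIR-Norm 1 stood above the other OIR-Norm libraries (81.7 ± 11.9 CPM, SD, n = 3). The log2 fold change was 0.62 (SE 0.09), a 1.54-fold higher level. With 2112 to 4654 reads per library, counting error alone would give a coefficient of variation of 1.78%, and the observed one was 2.22% in OIR-CIH and 14.6% in OIR-Norm. The call was lost without OIR-CIH 1, where the log2 fold change was 0.61, and was kept without each of the other libraries, including OIR-Norm 2 (0.56).

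Neurog2 (ENSMUSG00000027967, chromosome 3, 127633135 to 127635631 on the plus strand, 2 exons) encodes a proneural bHLH factor that starts the neuronal program in progenitors. It was a far less abundant message, at 24.09, 21.46 and 21.09 CPM in OIR-CIH and 15.68, 14.73 and 12.06 CPM in OIR-Norm. All OIR-CIH libraries were above all OIR-Norm libraries, 5.42 CPM apart at the nearest. The means were 22.2 ± 1.64 CPM and 14.2 ± 1.87 CPM (SD, n = 3 each), a log2 fold change of 0.65 (SE 0.12) or 1.57-fold. This call was the least stable of the 3. It held without OIR-Norm 1 (0.72) and was lost without each of the other 5 libraries in turn, although the log2 fold change stayed between 0.54 and 0.72; it was 0.68 without OIR-Norm 2.

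Bhlhe23 (ENSMUSG00000045493, chromosome 2, 180774381 to 180776900 on the minus strand, 1 exon), an Olig-related bHLH repressor known from the maturation of rod bipolar cells, had the largest log2 fold change of the 8 tested members. Its level was 49.25, 49.48 and 53.91 CPM in OIR-CIH and 33.69, 25.43 and 31.89 CPM in OIR-Norm. No OIR-Norm library came within 15.56 CPM of an OIR-CIH library. The means were 50.9 ± 2.63 CPM and 30.3 ± 4.34 CPM (SD, n = 3 each), and the log2 fold change was 0.75 (SE 0.10), or 1.68-fold. It was called without each library in turn, with values from 0.63 (without OIR-Norm 2) to 0.82. Gm14343, a noncoding gene that overlaps Bhlhe23 on the same strand, measured 0.875 CPM in OIR-CIH and 0.795 CPM in OIR-Norm, and reads overlapping more than 1 gene are not counted by the software used.

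Atoh7 (ENSMUSG00000036816, chromosome 10, 63099651 to 63101279 on the plus strand), the proneural factor needed for retinal ganglion cells to form, was close to the limit of detection. The libraries held 30, 21 and 23 reads in OIR-CIH and 19, 14 and 16 reads in OIR-Norm, or 1.18, 0.728 and 0.609 CPM against 0.617, 0.491 and 0.503 CPM. OIR-CIH 3 lay below OIR-Norm 1, so the groups overlapped. The exact Poisson 95% interval of OIR-CIH 1, the highest library, ran from 0.794 to 1.68 CPM, and that of OIR-Norm 2, the lowest, from 0.268 to 0.824 CPM; these intervals cover counting error only. The log2 fold change of 0.61 was similar in size to that of Insm1, but its SE was 0.35, and it ranged from 0.30 to 0.81 as single libraries were left out. The coefficient of variation was 35.8% in OIR-CIH. Counting error alone would give 22.1% at the mean count over all libraries. The gene was not called.

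Neurod1 (ENSMUSG00000034701, chromosome 2, 79452521 to 79456751 on the minus strand), which stays on in photoreceptors and supports their survival, was the most abundant member. It measured 494.4, 437.7 and 418.6 CPM in OIR-CIH and 493.8, 530.2 and 522.5 CPM in OIR-Norm. OIR-CIH 1 and OIR-Norm 1 had nearly the same level, so the groups overlapped by that library. The log2 fold change was -0.20 (SE 0.09), opposite in sign to Insm1. Cerkl, which overlaps Neurod1 on the same strand, had a log2 fold change of -0.19.

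Neurod4 (ENSMUSG00000048015, chromosome 10, 130268152 to 130280240 on the minus strand), a bHLH factor of bipolar and other second-order neurons, measured 264.7, 249.6 and 264.5 CPM in OIR-CIH and 266.1, 287.2 and 273.5 CPM in OIR-Norm. The groups did not overlap but were only 1.39 CPM apart, less than the SD of either group (8.67 and 10.7 CPM). Groups separate in this way, in either direction, for 18.4% of tested genes. The log2 fold change was -0.09 (SE 0.08).

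Olig2 (ENSMUSG00000039830, chromosome 16, 91225457 to 91228677 on the plus strand), a factor of retinal progenitors and of the oligodendrocyte lineage, had 1 read in OIR-CIH 1 and 0 reads in the other 5 libraries. A count of 0 allows a level of up to 0.0794 to 0.105 CPM in those libraries, and no fold change is given. Its neighbor Olig1 had between 2 and 14 reads per library.

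Sox4 (ENSMUSG00000076431, chromosome 13, 28948919 to 28953713 on the minus strand) measured 64.04, 69.76 and 76.98 CPM in OIR-CIH and 63.68, 67.7 and 65.18 CPM in OIR-Norm. Sox11 (ENSMUSG00000063632, chromosome 12, 27334264 to 27342574 on the minus strand), the other SoxC gene, measured 4.55, 5.17 and 6.33 CPM in OIR-CIH and 5.36, 6.00 and 6.22 CPM in OIR-Norm. In both genes the groups overlapped, and OIR-CIH 3 was the highest library. The log2 fold changes were 0.10 (SE 0.08) for Sox4 and -0.12 (SE 0.16) for Sox11, so neither SoxC gene approached the size seen in Insm1 or Bhlhe23.

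**Figure D2:**
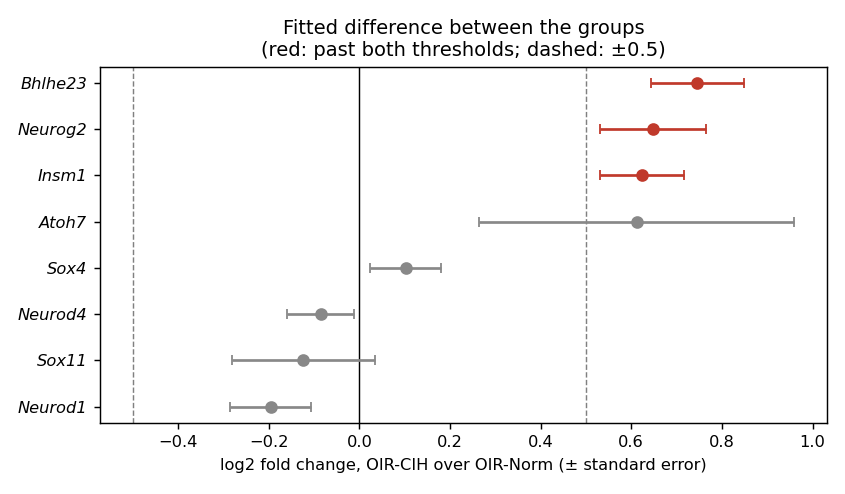
Log2 fold change, OIR-CIH over OIR-Norm (horizontal axis, ± standard error of the edgeR fit), of the 8 tested factors. Insm1 (0.62), Neurog2 (0.65) and Bhlhe23 (0.75) lie above 0.5, as does Atoh7 (0.61) with a much wider error, while Sox4, Neurod4, Sox11 and Neurod1 lie between 0.10 and -0.20.

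Scaled by the length of the merged exons, the 8 tested members covered a wide range of abundance. Neurod1 was highest, at a mean of 176.9 CPM per kb over the 6 libraries (153.4 to 194.3), followed by Neurod4 at 80.0 (74.6 to 85.9) and Insm1 at 33.5 (23.9 to 41.5). Bhlhe23 and Sox4 followed with means of 16.1 and 14.2 CPM per kb. In OIR-CIH, Bhlhe23 (19.5 to 21.4) lay above Sox4 (13.4 to 16.1) in every library. In OIR-Norm, Bhlhe23 (10.1 to 13.4) overlapped the lower end of Sox4 (13.3 to 14.1). It was below Sox4 in OIR-Norm 2 and 3 and about level with it in OIR-Norm 1 (13.37 against 13.28). Neurog2 came next at 8.17 CPM per kb (5.42 to 10.8). Sox11 (0.674) and Atoh7 (0.422) were the lowest of the 8, and their ranges overlapped. Olig2, which was not tested, was below both with its 1 read. Neurod1 and Neurod4, the factors of newborn and mature neurons, thus stood above the progenitor factors Neurog2 and Atoh7 in every library.

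**Figure D3:**
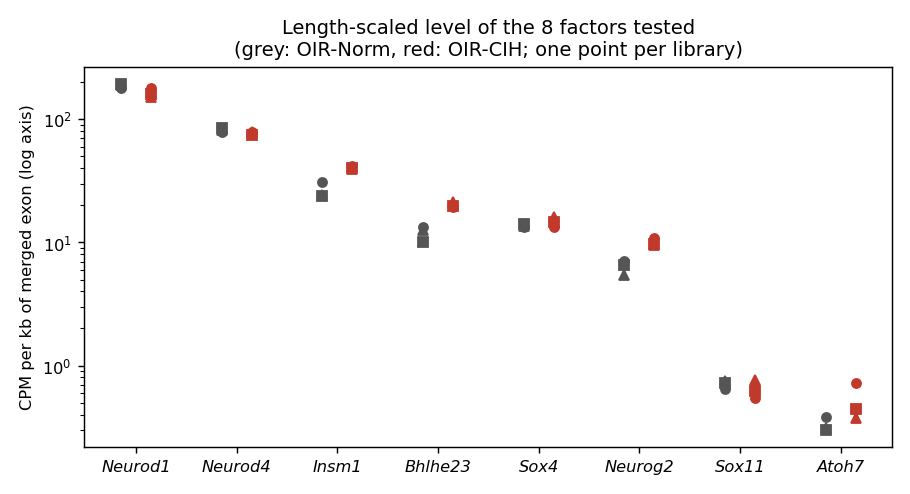
Length-scaled level of the 8 tested factors in CPM per kb of merged exon (vertical log axis), one point per library, colored by group. Neurod1 sits near 177 and Atoh7 near 0.422, and the OIR-CIH points of Bhlhe23 lie above those of Sox4 while its OIR-Norm points overlap the lower end of those of Sox4.

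Ratios between members within a library do not depend on how the libraries are scaled to each other. For every 100 reads of Neurod1, there were 26, 28.7 and 29.4 reads of Insm1 in OIR-CIH and 19.3, 14 and 14.5 in OIR-Norm. Bhlhe23 gave 9.96, 11.3 and 12.9 reads in OIR-CIH and 6.82, 4.8 and 6.1 in OIR-Norm, and Neurog2 gave 4.87, 4.9 and 5.04 reads against 3.17, 2.78 and 2.31. All 3 ratios were separate between the groups. Insm1 relative to Neurog2 was not, with 534, 586 and 584 reads of Insm1 per 100 of Neurog2 in OIR-CIH and 608, 503 and 626 in OIR-Norm. Insm1 relative to Bhlhe23 overlapped as well (261, 254 and 228 against 283, 291 and 237). Neurod1 relative to Neurod4 was steady in OIR-Norm, at 186, 185 and 191 reads per 100, and 187, 175 and 158 in OIR-CIH.

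The members also differed in how they varied from library to library. As a measure of likeness, the root-mean-square (RMS) difference between the centered log2 CPM profiles of 2 genes was taken over the 6 libraries, where 0 is an identical profile; these libraries are shared by all genes, and the group difference is part of each profile. Insm1 and Neurog2 differed by 0.11, Insm1 and Bhlhe23 by 0.13, and Neurog2 and Bhlhe23 by 0.21. Neurod1 and Neurod4 differed by 0.09, and Insm1 and Neurod1 by 0.45. OIR-Norm 1 was the highest OIR-Norm library in each of Insm1, Neurog2, Bhlhe23 and Atoh7, and it was also the OIR-Norm library with the highest summed pigment epithelium level (395.1 CPM).

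**Figure D4:**
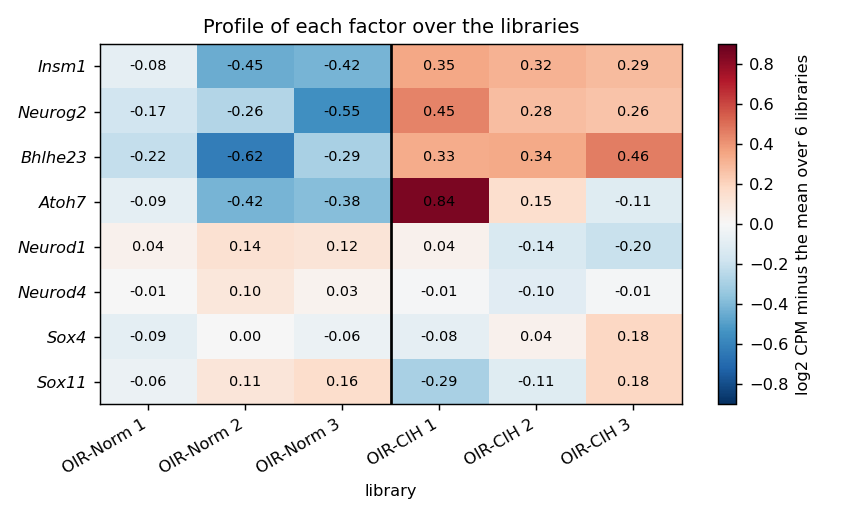
Log2 CPM of each tested factor minus its mean over the 6 libraries (color scale, red above and blue below the mean), one column per library. Insm1, Neurog2 and Bhlhe23 are red in OIR-CIH and blue in OIR-Norm, least so in OIR-Norm 1, and Neurod1 is blue in OIR-CIH 2 and 3.

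Among the 14799 genes with a mean of at least 1 CPM, those nearest to Insm1 in profile were Selenbp1 (RMS 0.05), the bHLH inhibitor Id1 (0.07), Ppp1r3c, a subunit that directs a phosphatase to glycogen (0.07), Gm16104 (0.07) and Cdc45, a component of the replication helicase (0.08). Those nearest to Bhlhe23 were Gm17322 (0.08), Tfap2e (0.10), E230001N04Rik (0.11), Ppp1r3c (0.12) and Insm1 itself (0.13). Ppp1r3c, at 51.0 CPM in OIR-CIH and 33.8 CPM in OIR-Norm, appeared in both.

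The genes around the members were examined in the same way. Within 100 kb of a member there were 34 gene entries, 26 of them tested, and edgeR called 0, with 1 at an unadjusted p under 0.05, and DESeq2 and limma also called 0. With 0.315% of all tested genes called, a count of 0 among so few genes says little. Their median log2 fold change was -0.10. The nearest neighbors of Insm1, Cfap61 and Ralgapa2, had log2 fold changes of 0.01 and -0.12. That of Neurog2, Zgrf1, had -0.13. Near Bhlhe23, the overlapping Gm14343 had 0.14 and Slc17a9, the next nearest, 0.02. The 1 gene with an unadjusted p under 0.05 was Dido1, 64.4 kb from Bhlhe23. It was lower in OIR-CIH without overlap of the groups (log2 fold change -0.22, SE 0.07, adjusted p = 0.247, edgeR). Gm14339, a noncoding gene 70.8 kb from Bhlhe23, had a log2 fold change of 0.87 (SE 0.42, adjusted p = 0.406, edgeR). It had 9, 15 and 17 reads in OIR-CIH and 8, 6 and 8 in OIR-Norm, and its CPM did not overlap between the groups.

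The rest of the pathway was described with lists of 207 genes in 15 groups, of which 202 were tested and 5 called (3 higher and 2 lower). The share of all tested genes called was 0.315%, and 13.2% had an unadjusted p under 0.05. The lists were written with earlier results of these data known, so nothing is read from a higher share called in them.

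The binding partners and inhibitors of bHLH factors came first. Of 7 E protein and Id genes, 2 were called, both higher and both Id genes. Id1 measured 28.21, 27.36 and 25.14 CPM in OIR-CIH and 19.54, 14.73 and 14.54 CPM in OIR-Norm, a log2 fold change of 0.72 (SE 0.12, edgeR, Benjamini-Hochberg adjusted p = 0.0202). Id2 measured 30.1, 24.79 and 28.82 CPM against 20.9, 17.33 and 16.08 CPM, a log2 fold change of 0.62 (SE 0.12, edgeR, adjusted p = 0.042). The groups did not overlap for either gene. Id1 was lost as a call without OIR-CIH 1, OIR-CIH 2, OIR-Norm 2 or OIR-Norm 3 (0.65 to 0.71), and Id2 without OIR-CIH 1, OIR-CIH 3, OIR-Norm 2 or OIR-Norm 3 (0.54 to 0.60). Id3 and Id4 were not called, nor were the E protein genes Tcf3 (48.3 against 45.5 CPM), Tcf4 (126.6 against 121.6 CPM) and Tcf12 (103.4 against 103.7 CPM).

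In the Notch pathway, 2 of 23 tested genes were called, both lower, and 6 had an unadjusted p under 0.05. The ligand Jag1 fell from 130.6, 132.2 and 125.1 CPM in OIR-Norm to 95.59, 89.31 and 88.55 CPM in OIR-CIH, a log2 fold change of -0.504 (SE 0.07, edgeR, adjusted p = 0.00541), just past the size limit of 0.5, and without OIR-CIH 2, OIR-CIH 3 or OIR-Norm 2 it was -0.487 to -0.491 and no longer called. The receptor Notch1 fell from 41.58, 43.32 and 35.37 CPM to 25.11, 26.73 and 30.57 CPM, a log2 fold change of -0.54 (SE 0.10, edgeR, adjusted p = 0.0439). Its call was lost without OIR-CIH 1, OIR-CIH 2, OIR-Norm 1 or OIR-Norm 2 (-0.48 to -0.52). The repressor genes that Notch switches on were not called, and their directions were mixed. Hes1 measured 25.5 CPM in OIR-CIH and 21.6 CPM in OIR-Norm, Hes5 1.47 and 1.73 CPM, and Hey1 21.6 and 16.1 CPM. Hey2 measured 15.08 and 19.15 CPM (log2 fold change -0.345, adjusted p = 0.247, edgeR), and Heyl 2.305 and 3.146 CPM. The groups did not overlap for Hey1, which was higher in OIR-CIH, or for Hey2, which was lower. The list's median log2 fold change was -0.04.

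Of the other neurogenic factors, 20 of 23 were tested, and the 3 that were not (Atoh1, Neurog1 and Neurog3) had 0 reads in all libraries. edgeR called 0 of the 20, DESeq2 and limma also 0, and 6 had an unadjusted p under 0.05. Bhlhe22, the closest relative of Bhlhe23 in the list, measured 60.6 CPM in OIR-CIH and 49.9 CPM in OIR-Norm with an adjusted p of 0.284 in edgeR. Hes6, which opposes Hes1, measured 32.7 and 26.7 CPM (adjusted p = 0.27, edgeR). Olig3 had 2, 2 and 3 reads in OIR-CIH and 14, 7 and 13 in OIR-Norm, too few for a call (adjusted p = 0.173, edgeR).

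The genes of dividing progenitors were not called in edgeR. Among 14 retinal progenitor genes, 0 were called by edgeR, DESeq2 or limma, 4 had an unadjusted p under 0.05, and the median log2 fold change was 0.10. The lowest p-values there belonged to Six6 (log2 fold change 0.24, adjusted p = 0.204, edgeR), Hmga2 (-0.95, adjusted p = 0.304) and Lhx2 (0.23, adjusted p = 0.364). Of 17 cell division genes, edgeR and limma called 0, 5 had an unadjusted p under 0.05, and 14 had a fitted log2 fold change below 0 (median -0.17), as had 10114 of the 20021 genes tested. DESeq2 called 2 of them, both lower: the checkpoint kinase gene Bub1b (18.4 CPM in OIR-CIH against 26.2 CPM in OIR-Norm, adjusted p = 0.0703 in edgeR) and the mitotic kinesin gene Kif14 (2.46 against 4.34 CPM, adjusted p = 0.142 in edgeR). Mki67, a general marker of cycling cells, had a log2 fold change of -0.64 (adjusted p = 0.314, edgeR). Pcna, the sliding clamp of DNA replication, went the other way, at 66.8 CPM in OIR-CIH and 59.7 CPM in OIR-Norm without overlap (log2 fold change 0.16, adjusted p = 0.372, edgeR).

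Young neuron genes, which encode proteins of growing axons and the neuronal cytoskeleton, had a fitted log2 fold change above 0 in 12 of 12, beside 49.5% of all tested genes, with a median of 0.18. The same held for 10 of 10 rod genes and for 13 of 16 amacrine and horizontal cell genes. Of the 12 young neuron genes, edgeR, DESeq2 and limma each called 0, and 3 had an unadjusted p under 0.05. Stmn2, for example, measured 106.3 CPM in OIR-CIH and 91.3 CPM in OIR-Norm (adjusted p = 0.312, edgeR), and the log2 fold changes of Stmn1 and Gap43 were 0.18 and 0.23.

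Markers of the cell types that hold these factors were examined in the same way. Of 13 photoreceptor fate genes, edgeR and limma called 0, and 6 had an unadjusted p under 0.05. Nr2e3, the nuclear receptor that keeps rods from turning into cones, measured 1480 ± 152.2 CPM in OIR-CIH and 1012 ± 102.7 CPM in OIR-Norm (SD, n = 3 each), a log2 fold change of 0.55 (SE 0.12, adjusted p = 0.0764 in edgeR), and DESeq2 called it. Nrl, the rod determinant, and Otx2 had log2 fold changes of 0.34 and 0.21 (adjusted p = 0.316 and 0.309, edgeR). Of 20 bipolar cell genes, edgeR, DESeq2 and limma called 0, 3 had an unadjusted p under 0.05, and the median was -0.01, with Trpm1 at -0.27, Scgn at 0.22 and Cabp2 at 0.32 on the log2 scale. Of 16 amacrine and horizontal cell genes, 1 was called: Prdm13, a factor of amacrine cell subtypes, measured 30.69, 27.46 and 36.02 CPM in OIR-CIH and 21.06, 19.57 and 22.59 CPM in OIR-Norm (log2 fold change 0.58, SE 0.11, edgeR, adjusted p = 0.047). It was lost as a call without OIR-CIH 1, OIR-CIH 3, OIR-Norm 1 or OIR-Norm 2 (0.46 to 0.59), and with a stricter filter on low counts (0.57). Lhx1, of horizontal cells, and Tfap2a, of amacrine cells, had log2 fold changes of 0.42 and 0.27 (adjusted p = 0.217 and 0.349, edgeR). Of 14 ganglion cell genes, 12 Müller glia genes, 9 tested oligodendrocyte genes and 10 rod genes, edgeR, DESeq2 and limma called 0, with 1, 4, 1 and 0 of them at an unadjusted p under 0.05. The lowest p-values among them were those of Nefh (log2 fold change -0.25), Isl2 (0.28) and Eomes (0.18) for ganglion cells, Car14 (0.40), Aqp4 (-0.31) and Rlbp1 (0.34) for Müller glia, Ermn (0.51), Cldn11 (0.92) and Mag (0.86) for oligodendrocytes, and Rcvrn (0.23), Rom1 (0.21) and Pde6b (0.16) for rods.

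Lens and pigment epithelium are tissues outside the neural retina. All 7 tested lens genes had a fitted log2 fold change below 0 (median -2.13), and edgeR, DESeq2 and limma called 0 of them, with 5 at an unadjusted p under 0.05. The summed lens level was high only in OIR-Norm 2 (453.9 CPM). In OIR-Norm 1 and 3 it was 25.09 and 21.46 CPM, within the OIR-CIH range of 16.3 to 64.7 CPM. Of 8 pigment epithelium genes, 4 were above and 4 below 0 (median 0.28), edgeR, DESeq2 and limma called 0, and 5 had an unadjusted p under 0.05, led by Ttr (0.75), Lrat (0.81) and Rgr (0.59). Pmel was also among these 5 but had a log2 fold change below 0 (-0.78). Mlana, which was not among the 5, was below 0 as well (-0.91). The groups overlapped for Pmel and for Mlana. The summed level of the list overlapped between the groups, but Ttr (147.5 to 216.4 against 86.26 to 134.1 CPM) and Lrat (21.73 to 38.57 against 12.41 to 21.16 CPM) did not, and their log2 fold changes stayed above 0 without each library in turn (0.56 to 0.98 and 0.52 to 1.05). The part of these genes in the higher levels of Insm1, Neurog2 and Bhlhe23 was not tested.

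**Figure D5:**
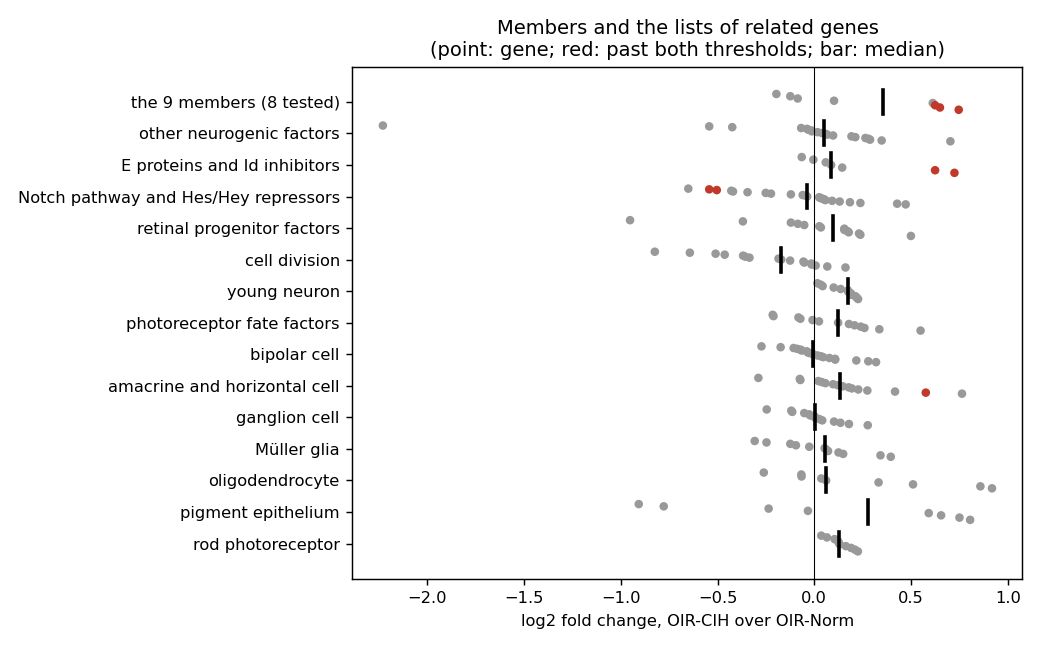
Log2 fold change, OIR-CIH over OIR-Norm (horizontal axis), of each tested gene among the 9 factors (top) and in the lists other than lens, which is not drawn; a point is a gene, red marks a call and a bar is the median. List medians lie between -0.17 (cell division) and 0.28 (pigment epithelium), and the red points outside the top row are Id1, Id2, Jag1, Notch1 and Prdm13.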

How the data were processed

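Retinal RNA (250 ng, stranded mRNA kit) gave 3 libraries per group. The authors aligned reads with STAR 2.7.9a and deposited its raw counts per gene, with no normalization. The submitters' processing notes name GRCm38 and DESeq, and the methods name Ensembl 105; which strand setting was counted is not given in the sources used here. Coordinates are from the GENCODE M21 annotation of GRCm38.

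Members and lists were chosen with earlier results of these data known. Genes reaching 10 reads in total entered edgeR 4.0.16 in R 4.3.3 (quasi-likelihood, TMM factors 0.969 to 1.031, Benjamini-Hochberg adjustment); calls needed an adjusted p below 0.05 and a log2 fold change beyond 0.5 either way. Named list genes were the 3 with the lowest p of each list and any other called gene. Named as well were the 5 genes nearest in profile to Insm1 and to Bhlhe23. E protein, Hes, Hey2, Heyl, Pcna, Pmel and Mlana values and neighboring genes were added after their values were seen. In an exact permutation test, 3 against 3 libraries cannot go below p = 0.1, so none was run. DESeq2 1.42.0, limma 3.58.1 on log2(CPM + 0.5), other scaling and filters, a replicate block and leaving out each library were alternatives. On simulated data for this comparison, 19741 genes with 200 changed, 182 were called, 174 of them changed. With none changed (19739 genes), 4 were called. Only genes well above the minimum count were changed, most of them by more than the called factors differ here. These counts therefore do not give the chance of a call for differences of that size or for genes with few reads. No 2 libraries agreed within sampling noise (chi-square per degree of freedom 10.3 to 34.5). A second deposited table, of sample names, was not used. Where nothing says that libraries came from separate animals, p-values measure only the spread between these libraries. The result for 1 listed gene is not reported here.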

Additional observations from a re-analysis of the deposited data

How the results depend on the processing

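The 3 calls among the factors (Insm1, Neurog2 and Bhlhe23) held in all 6 other settings, and 1 to 3 were left when single libraries were left out, 1 (Bhlhe23) without OIR-CIH 1. The factors' median log2 fold change of 0.36 became 0.22 with limma and 0.61 with no minimum count, where Olig2 enters on 1 read, and ranged from 0.23 to 0.40 without single libraries. Over all genes, 63 calls became 135 with DESeq2 and 213 with no minimum count (24439 genes tested), and 35 (without OIR-CIH 1) to 104 (without OIR-Norm 3) without single libraries. The 20 higher calls became 34 with DESeq2, 60 with no minimum count, 32 with the replicate block and 11 (without OIR-CIH 1) to 33 (without OIR-Norm 1) without single libraries. The 43 lower calls became 101, 153 and, without single libraries, 24 (without OIR-CIH 1) to 88 (without OIR-Norm 3). The 5 list genes called became 8 with DESeq2, 16 with no minimum count, 10 with the replicate block and 0 (without OIR-Norm 2) to 6 (without OIR-Norm 1); the count was 1 without OIR-CIH 1, 2 without OIR-CIH 2, and 3 without OIR-CIH 3 or OIR-Norm 3. The libraries share only a number (deviations of same-numbered libraries correlated at 0.104, 0.0989 and -0.181, and 2 of 6 libraries correlated best with their own number); the replicate block gave 84 calls, 60 of them among the 63, and of the named genes left out Notch1 (-0.54) and added Nr2e3 (0.55), Crygs (-1.94), Ttr (0.76), Lrat (0.80) and Rgr (0.61). The lens genes Crygd, Crygs and Cryba1 (-2.94, -2.61 and -2.55) turned to 0.23, 0.18 and 0.66 without OIR-Norm 2, and without other libraries reached -3.48, -3.78 and -3.77. Where calls moved for another reason than fewer or more genes or libraries, the cause was not tested. Reads are few for Atoh7 (14 to 30 per library) and Olig2 (at most 1 read).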
